A study of Mus musculus with 12 samples.

Results

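The vascular endothelial growth factor (VEGF) family, its receptors and the fibroblast growth factor gene Fgf2 were followed in primary mouse mesenchymal stromal cells (MSCs) exposed to A1, alone or with ovalbumin. The set held 9 genes chosen by symbol, namely Vegfa, Vegfb, Vegfc, Vegfd, Pgf, Flt1, Nrp1, Nrp2 and Fgf2, and all 9 were found by their mouse Ensembl identifiers among the 55487 genes of the count table. Of these, 8 were expressed highly enough to enter the test with 11306 other protein-coding genes, and Vegfc, which had between 1 and 8 counts in each sample, was not tested.

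The cells came from the femoral marrow of young, female, wild-type C57BL/6 mice, were expanded over several passages and stored frozen, and were cultured until they passed 80% confluency before treatment. Control MSCs (labelled Negative) were left untreated, A1 MSCs received 50 µM A1, and A1 + OVA MSCs received 50 µM A1 together with 1 mg/mL ovalbumin from chicken egg white, with 6 h of incubation given for the treatments and 4 samples in each of the 3 groups. How many mice stand behind the samples is not given in the sources used here. A1 is cholic acid, a bile acid, joined to a nuclear localization peptide named after hnRNPA1. No sample received ovalbumin alone, and the text on the A1 + OVA medium also names insulin without an amount, so what ovalbumin and insulin each added cannot be told apart. PolyA RNA was sequenced with strand information, and the libraries held from 13702348 to 16881995 counts assigned to genes. The 4 control libraries (15644991 to 16881995 counts) were all deeper than the 4 A1 libraries (13702348 to 14347870 counts), and the part of depth in the results was not tested. Nothing says whether the samples of a group came from separate cultures or animals, so the p-values measure the spread between these samples, which may be technical.

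VEGF-A is the principal growth factor of blood vessels, and cells make more of it when oxygen is low. VEGF-C and VEGF-D act mainly on lymphatic vessels, while VEGF-B and placental growth factor (PlGF, from Pgf) bind the receptor VEGFR1, the product of Flt1. The neuropilins Nrp1 and Nrp2 are co-receptors that VEGFs share with class 3 semaphorins, and FGF2 is a heparin-binding mitogen that also acts on vessels. Marrow stromal cells are known to secrete several of these factors, which act on endothelial cells nearby.

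The identity of the cells bears on how these genes read, since endothelial cells carry most VEGF receptors. The 10 endothelial markers examined, among them the VEGF receptors Kdr and Flt4, summed to between 0.251 and 1.07 CPM (a gene's counts divided by the scaled total of its library, in the usual CPM unit) in any sample, none of them entered the test, and Cldn5 had no count. MSC markers were high as a list, summing to 2435 to 2636 CPM in control, 3233 to 3453 CPM in A1 and 3060 to 3292 CPM in A1 + OVA MSCs, but Thy1 (0 to 17 counts) and Nt5e (7 to 14 counts) were close to 0. Most of that sum was the integrin gene Itgb1, which with Cd44 was higher in A1 than in control MSCs (log2 fold change 0.62, SE 0.04, and 1.39, SE 0.04), whereas Pdgfra (-0.99, SE 0.05), Vcam1 (-0.95, SE 0.04) and Ly6a (-0.59, SE 0.07) were lower, all 5 with an adjusted p under 0.05. Eng (-0.05, SE 0.09) and Pdgfrb (-0.01, SE 0.04) did not change detectably with A1. Of 9 macrophage and leukocyte markers 2 entered the test, and their list summed to 9.41 to 10.5 CPM in control, 11.98 to 14.7 CPM in A1 and 10.7 to 13.1 CPM in A1 + OVA MSCs, most of it Cd14 (7.43 to 12.6 CPM over all samples), with Cd68 next (1.13 to 1.98 CPM). Cd3e had no count and Ptprc, the gene of CD45, had at most 4. Of 6 pericyte and smooth muscle markers 4 entered the test. Their list summed to 2160 to 2460 CPM in control, 4273 to 4481 CPM in A1 and 4484 to 4704 CPM in A1 + OVA MSCs. Nearly all of that sum came from the contractile actin Acta2. Acta2 (log2 fold change 0.94, SE 0.04) and Mcam (0.91, SE 0.06) were higher with A1 and Rgs5 (-0.68, SE 0.11) lower, each with an adjusted p under 0.05. Des did not change detectably (0.04, SE 0.18), and Cspg4 and Myh11 had at most 1 and 7 counts. The part of these marker shifts in the results was not tested, and in bulk RNA fewer cells of a type and less RNA per cell cannot be told apart.

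Fgf2, Vegfa and Pgf rose with A1, Vegfd, Vegfb and Nrp2 fell, and Nrp1 and Flt1 were not called. Thus 6 of the 8 tested members passed an adjusted p of 0.05 (edgeR quasi-likelihood test, Benjamini-Hochberg adjustment over 11314 genes), 3 higher and 3 lower. The response to A1 was broad, as 62.7% of all tested genes were called, 31.7% higher and 31.1% lower, so the count of members called is near the background. The groups did not overlap for 6 of the 8 members, against 54.4% of tested genes. The sizes stood above the background: 4 members were called with a log2 fold change of at least 1 in either direction, against 6.58% of tested genes, and 4 at a minimum of 0.5, against 21%. These members were chosen with results known, and the comparison is a description.

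**Figure D1:**
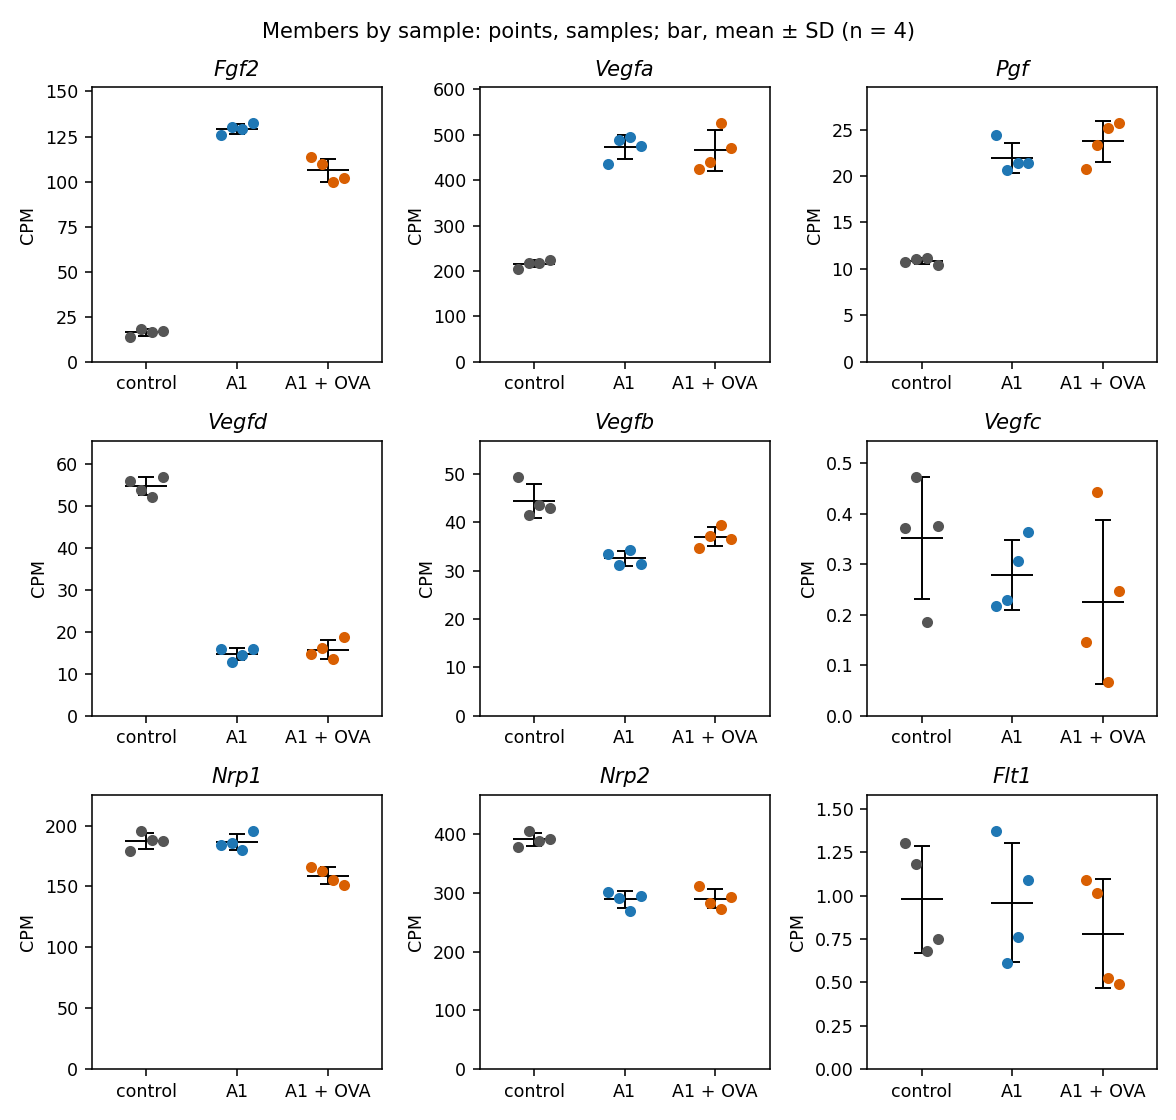
Library-scaled counts (CPM, y axis from 0, a separate scale for each gene) of the 9 genes in control, A1 and A1 + OVA MSCs; each point is a sample, and the bars are the mean and SD of 4 samples. Fgf2, Vegfa and Pgf lie higher and Vegfd lower in every treated sample than in every control sample, Nrp1 is lower in A1 + OVA MSCs only, and Vegfc stays under 0.473 CPM.

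Regulatory sequence near the start of the genes was read from the RefSeq promoter table of GRCm38.p6, which spans 250 bases before to 50 bases after each start and held 11 promoters for the 9 members, with 2 each for Vegfa and Pgf. Stretches are shown for the 4 members with the largest changes. The letters GGGCGG (the GC box bound by SP1, searched on both strands, overlapping matches counted apart) are in capitals. For Vegfa the 250 bases before the start (chr17:46032378-46032627, minus strand) are given, and for Vegfd the 106 bases that lie outside annotated exons (chrX:164373272-164373377, plus strand). For Fgf2 (chr3:37348592-37348621, plus strand) and Pgf (chr12:85177346-85177375, minus strand), where exons of other transcripts cover the window, 30 bases around the GC box are given.
Vegfa: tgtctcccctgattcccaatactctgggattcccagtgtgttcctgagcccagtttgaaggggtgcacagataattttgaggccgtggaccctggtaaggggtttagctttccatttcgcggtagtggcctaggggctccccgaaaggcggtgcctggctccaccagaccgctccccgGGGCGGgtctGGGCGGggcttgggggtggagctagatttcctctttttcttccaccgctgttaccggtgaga
Fgf2: aggcggcgcgcgGGGCGGgggcgcacgggg
Pgf: cgagatagaagtGGGCGGgcaggctgcagc
Vegfd: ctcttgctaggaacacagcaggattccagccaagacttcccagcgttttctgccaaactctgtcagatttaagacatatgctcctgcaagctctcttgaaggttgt
The Vegfa stretch held 2 GC boxes, which begin 72 and 62 bases before the start, Fgf2 had 1 at 49 bases and Pgf had 1 at 50 bases before the start and another on the opposite strand at 31. The whole window of 300 bases of Vegfd held none, and neither did that of the second promoter of Pgf, a rising gene. The GC content of the Vegfd window was 42%, against 59.3% to 75.3% in the other 10 member promoters. GC boxes were present in 9 of the 11 member promoters, the falling genes Vegfb and Nrp2 included with 4 and 5, and in 35.7% of the 32851 promoters of the table. The core of the hypoxia response element, ACGTG on either strand, was found in 1 member promoter and in 19.6% of all promoters. That promoter was the second of Vegfa, with the match 211 bases before its start. There only 32 of the 250 bases before the start lie outside annotated exons. These matches are letters in a window and not binding sites that were measured. Sequence outside the windows was not searched, so elements further from a start would be missed.

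Fgf2 changed the most. It lies on chromosome 3 (chr3:37348346-37410108, plus strand, GRCm38) and had 13.68, 18.4, 16.4 and 17.2 CPM in the control samples. In the A1 samples it reached 126, 130.2, 129 and 132 CPM, and in the A1 + OVA samples 114, 109.8, 99.9 and 102.1 CPM. The 3 groups did not overlap, with control lowest, A1 + OVA in between and A1 highest. A1 raised Fgf2 by a log2 fold change of 2.98 (SE 0.06, 7.87-fold, adjusted p = 2.26e-19), the 26th highest of the 11314 tested genes. With ovalbumin added the rise over control was 2.69 (SE 0.06, 6.47-fold, adjusted p = 1.52e-18), and the direct comparison of A1 + OVA with A1 gave a fall of 0.28 on the log2 scale (SE 0.05, adjusted p = 0.00108). Nudt6, the antisense gene that overlaps Fgf2, stayed between 20 and 36 counts in every sample (log2 fold change -0.01, SE 0.18, adjusted p = 0.98 for A1 against control), and reads were counted by strand. Fgf2os, an antisense transcript at the same locus, had at most 4 counts.

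Vegfa, whose product drives the sprouting of blood vessels, lies on chromosome 17 (chr17:46016993-46032369, minus strand). It had 205, 218, 218 and 224 CPM in the control samples. It had 435, 487, 495 and 475 CPM with A1 and 425, 439.7, 526 and 471 CPM with A1 + OVA. Every treated sample was above every control sample, while the 2 treated groups overlapped and the A1 + OVA samples spread most. The log2 fold change was 1.13 (SE 0.06, 2.19-fold, adjusted p = 1.74e-13) with A1 and 1.10 (SE 0.06, 2.15-fold, adjusted p = 2.82e-13) with A1 + OVA. Between A1 + OVA and A1 no difference in Vegfa was detectable, at -0.02 with a 95% interval of -0.14 to 0.09 on the log2 scale (adjusted p = 0.821). Vegfa has 8 annotated coding transcripts, which encode forms that bind heparin to different extents, and counts per gene do not separate them.

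Pgf, which encodes the VEGFR1 ligand PlGF, lies on chromosome 12 (chr12:85166635-85177790, minus strand) and was expressed at a lower level. It had 10.7, 11.1, 11.2 and 10.4 CPM in control samples. It had 24.4, 20.6, 21.4 and 21.4 CPM with A1 and 20.7, 23.3, 25.2 and 25.7 CPM with A1 + OVA. Again the treated samples were all above the control samples and overlapped each other. The log2 fold change was 1.02 (SE 0.08, adjusted p = 4.38e-10) with A1 and 1.13 (SE 0.08, adjusted p = 5.46e-11) with A1 + OVA, and the 2 treatments differed by 0.11 (95% interval -0.04 to 0.27, adjusted p = 0.327).

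Vegfd, a ligand of the lymphatic receptor VEGFR3, lies on the X chromosome (chrX:164373378-164402650, plus strand) and moved the opposite way. It had 55.9, 53.8, 52.1 and 56.9 CPM in the control samples. It had 15.8, 12.8, 14.4 and 15.8 CPM with A1 and 14.6, 16.0, 13.4 and 18.8 CPM with A1 + OVA. All treated samples were far below all control samples. A1 lowered Vegfd with a log2 fold change of -1.90 (SE 0.08, 0.269 of the control level, adjusted p = 1.09e-14), the 57th lowest of the tested genes, and A1 + OVA with -1.79 (SE 0.08, adjusted p = 1.83e-14). The 2 treatments differed by 0.10 (95% interval -0.09 to 0.29, adjusted p = 0.515).

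Vegfb, which encodes another VEGFR1 ligand, lies on chromosome 19 (chr19:6982473-6987651, minus strand) and changed less. It had 49.4, 41.5, 43.5 and 43.0 CPM in control, 33.4, 31.2, 34.2 and 31.3 CPM in A1, and 34.6, 37.2, 39.5 and 36.6 CPM in A1 + OVA samples. The 3 groups did not overlap, with A1 + OVA between A1 and control. Vegfb fell with A1 (log2 fold change -0.45, SE 0.06, adjusted p = 1.58e-06) and with A1 + OVA (-0.26, SE 0.06, adjusted p = 0.000679). The difference between the 2 treatments, 0.19 (SE 0.06, 95% interval 0.06 to 0.32), narrowly missed the threshold at an adjusted p of 0.0518, with adjusted p from 0.0246 to 0.149 under the alternatives tried. It passed when A1 + OVA sample 1 (adjusted p = 0.0319), control sample 1 (0.0246) or control sample 2 (0.0436) was left out, and also without the filter on low counts (0.0455), in a fit of the 2 groups alone (0.0361), with upper-quartile scaling (an adjusted p that rounds to 0.05) and with the replicate number as a block (0.0483). Vegfc (chr8:54077606-54187096, plus strand), the other lymphatic factor, had 23 counts over the 4 control samples, 15 with A1 and 14 with A1 + OVA, so no change was detectable at this depth.

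The shift in ligands is described here per length of exons. RPKM are CPM divided by the total length of a gene's annotated exons in kilobases. That length can exceed the length of the transcripts expressed, so comparisons between genes are approximate. On this scale Vegfa led in every group. It had 50.5 ± 1.89 RPKM in control, 110.4 ± 6.24 in A1 and 108.6 ± 10.4 in A1 + OVA MSCs (SD, n = 4). Vegfb was second among the ligands at 27.6 ± 2.16, 20.3 ± 0.937 and 23.05 ± 1.24 RPKM. Vegfd stood at 22.7 ± 0.898 RPKM in control MSCs, above Pgf at 3.74 ± 0.127, and the order of the pair was reversed after treatment, with Vegfd at 6.09 ± 0.582 and Pgf at 7.56 ± 0.571 RPKM in A1 MSCs. Fgf2, at 2.42 ± 0.294 RPKM, was the lowest of the members above 1 RPKM in control MSCs, and with A1 it stood at 19.1 ± 0.420 RPKM, beside Vegfb and Nrp1 (19.1 ± 0.681). Of the summed RPKM of the 5 VEGF-family ligands, Vegfa made up 48.2 ± 1.97% in control, 76.4 ± 1.76% in A1 and 74.1 ± 1.30% in A1 + OVA MSCs. Over the same groups the share of Vegfd went from 21.7 ± 0.562% to 4.23 ± 0.510% and 4.48 ± 0.749%, and that of Vegfb from 26.4 ± 1.89% to 14.1 ± 0.822% and 15.8 ± 0.631%. The sum itself was 104.7 ± 1.65, 144 ± 5.35 and 146 ± 11.9 RPKM, and the RPKM of Vegfa was 2.23 ± 0.123 times that of Vegfd in control and 18.3 ± 2.59 times in A1 MSCs. These shares are descriptions and were not tested.

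**Figure D2:**
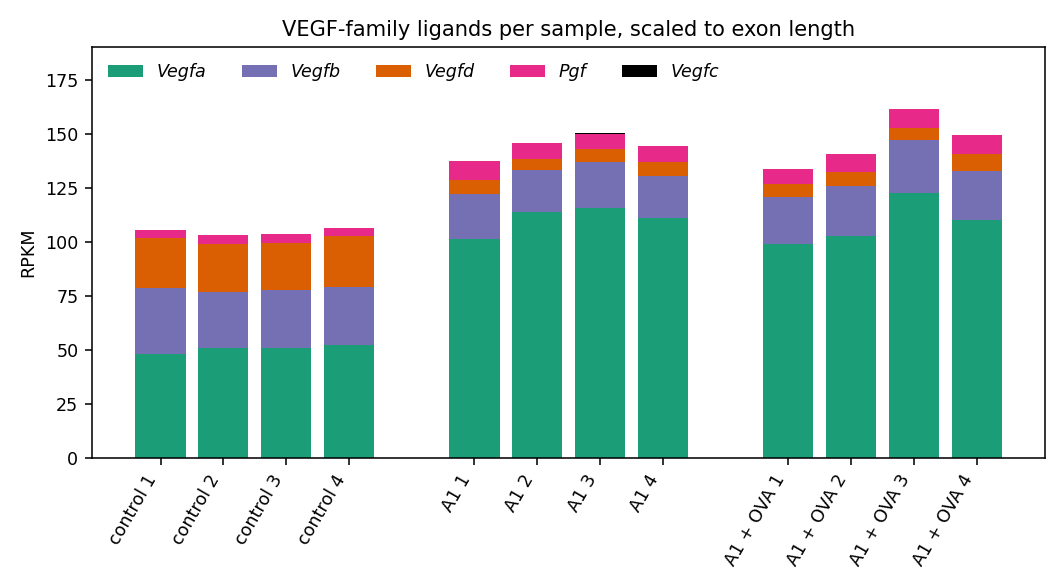
Summed level of the 5 VEGF-family ligands in each of the 12 samples in RPKM (y axis), with 1 bar per sample and a colour for each ligand. Vegfa grows from 48.2% of the bar on average in control to 76.4% in A1 MSCs and Vegfd shrinks from 21.7% to 4.23%, while Vegfc is too low to see in most bars.

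Among the receptors, Nrp2 fell with A1 whether or not ovalbumin was present, and Nrp1 fell only where ovalbumin had been added. Nrp2 (chr1:62703285-62818695, plus strand) had 377, 405, 387 and 391 CPM in the control samples. It had 301, 290.1, 269 and 295 CPM with A1 and 311, 283, 272 and 293 CPM with A1 + OVA. No treated sample reached the lowest control sample. The log2 fold changes were -0.44 (SE 0.04, adjusted p = 2.03e-08) and -0.43 (SE 0.04, adjusted p = 2.77e-08), and the treatments differed by 0.01 (95% interval -0.09 to 0.10, adjusted p = 0.948). Nrp1 (chr8:128358604-128503363, plus strand) had 179, 195, 188 and 187 CPM in control and 184, 186, 180.2 and 196 CPM in A1 samples, which overlapped (-0.01, 95% interval -0.09 to 0.08, adjusted p = 0.895). With A1 + OVA it had 166, 163, 155 and 151 CPM, below all samples of the other groups. This was a fall of 0.24 on the log2 scale against control (SE 0.04, adjusted p = 3e-05) and of 0.23 against A1 (SE 0.04, adjusted p = 0.000656). Gm29083, the antisense gene at Nrp2, had at most 3 counts in any sample. The RPKM of Nrp2 was 1.72 ± 0.0193 times that of Nrp1 in control, 1.28 ± 0.0531 times in A1 and 1.51 ± 0.0772 times in A1 + OVA MSCs.

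Flt1, the gene of VEGFR1 (chr5:147561604-147726011, minus strand), was barely expressed. It had 11 to 21 counts in control, 8 to 19 in A1 and 8 to 16 in A1 + OVA samples, and the groups overlapped. Its log2 fold change was -0.02 with A1, with a 95% interval of -0.67 to 0.63, and -0.34 with A1 + OVA (-1.01 to 0.32), so that a change of the size seen for Nrp2 was within the interval. Kdr, the gene of VEGFR2, the main signalling receptor of VEGF-A, had at most 5 counts and Flt4, the gene of VEGFR3, at most 1 count in any sample. The ligands and neuropilins were thus measured in cells with almost no RNA of the 3 VEGF receptor kinases.

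**Figure D3:**
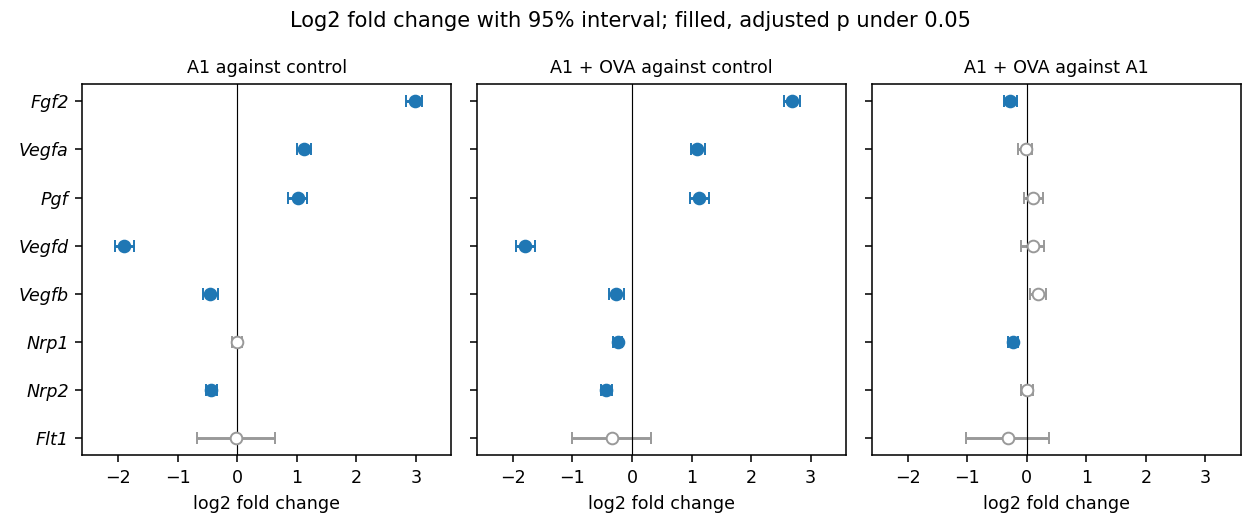
Log2 fold change (x axis) with its 95% interval for the 8 tested members in the 3 comparisons; filled blue points have an adjusted p under 0.05, open grey points do not. Fgf2 stands at 2.98 and 2.69 against control, Vegfd at -1.90 and -1.79, and in A1 + OVA against A1 the members with filled points are Fgf2 and Nrp1.

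In A1 + OVA MSCs 7 of the 8 tested members were called against control, 3 higher and 4 lower, where 57.6% of all tested genes were called (29.7% higher and 27.9% lower). The groups did not overlap for 7 of the 8, against 49.4% of tested genes, and 4 members were called with a change of at least 1 (5.21% of tested genes) or at least 0.5 (17.7%). The 2 comparisons with control share the same control samples. The member added to those called with A1 was Nrp1. In A1 + OVA against A1, 2 of the 8 were called, Nrp1 and Fgf2, both lower, where 12.9% of the tested genes were called 6.05% higher and 6.81% lower. The 2 groups did not overlap for 3 members, Vegfb being the other, against 18.1% of tested genes. None of the members was called with a change of at least 0.5 (1.2% of tested genes) or 1 (0.141%) between these 2 groups.

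Genes that share the pathway with the members were grouped in 9 lists of 129 genes, of which 101 were tested. With A1, 53 of them were called higher and 29 lower, with a median log2 fold change of 0.26, beside 0.00 over all tested genes. Thus 81.2% of them were called, where 62.7% of all tested genes were called, 31.7% higher and 31.1% lower, and the counts for each list below are to be read against those shares. With A1 + OVA 52 rose and 31 fell against control (median 0.17), or 82.2% called beside 57.6% of all tested genes. Between A1 + OVA and A1 alone 9 rose and 17 fell (median -0.02), or 25.7% called beside 12.9%. These lists too were chosen with results known.

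All 5 tested class 3 semaphorins, guidance molecules most of which bind neuropilins, were lower in both treatments, with a median log2 fold change of -1.06 with A1 and -1.12 with A1 + OVA. Sema3a went from 576 ± 26.7 to 238 ± 9.45 CPM with A1 (SD, n = 4 per group, log2 fold change -1.27, SE 0.04), Sema3d from 18.02 to 7.95 CPM (-1.18, SE 0.09) and Sema3c from 267 to 128 CPM (-1.06, SE 0.04). Sema3b and Sema3g had at most 14 counts and were not tested. Of the 11 tested VEGF receptor partners 7 were called higher and 2 lower with A1 (median 0.26), and Kdr, Flt4 and Plxna4 were too low to test. Itgb3 rose by 1.80 and Itgav by 0.70, which encode the subunits of the integrin that works with VEGFR2, and the semaphorin receptor Plxna1 rose by 0.58, while Plxnd1, another semaphorin receptor, was at -0.50 and Plcg1, a phospholipase downstream of VEGFR2, at -0.39.

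Around Fgf2, 3 of the 8 tested FGF ligands, receptors and co-receptors were called higher and 2 lower with A1 (median -0.04). The heparan sulfate co-receptor Sdc4 rose by 1.17 and the receptor Fgfr1 by 0.31 (from 172 ± 3.20 to 214 ± 3.15 CPM), and the stromal growth factor Fgf7 rose by 0.42. Another FGF receptor, Fgfr2, fell by 1.01 and Fgfrl1, a receptor without a kinase domain, by 0.59 on the log2 scale. The other 10 genes of this list were too low to test. Of the 13 tested genes for the processing and matrix release of VEGFs 5 were called higher and 2 lower (median 0.12), where Adamts3, Pcsk5, Mmp9, Klk1 and Hpse were too low to test. Ccbe1, a cofactor for the maturation of VEGF-C, rose by 1.53, from 27.7 ± 2.10 to 80.0 ± 3.11 CPM, the protease Adamts14 by 0.93 and the heparan sulfatase Sulf1 by 0.92. Adamts2 and Sulf2 both stood at -0.28.

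**Figure D4:**
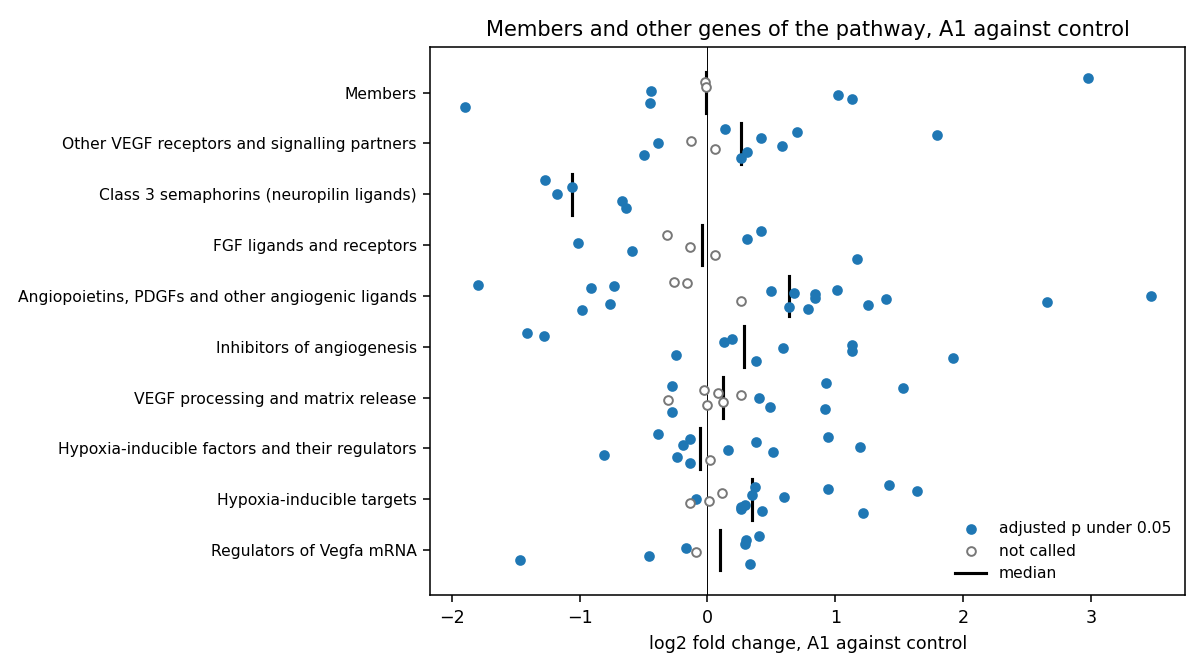
Log2 fold change of A1 against control (x axis) for the 8 tested members and the 101 tested genes of the 9 pathway lists; each point is a gene, blue where the adjusted p is under 0.05 and white otherwise, and the black bar is the list's median. The 5 class 3 semaphorins all lie below 0, and the hypoxia-inducible targets lie mostly above 0 while the hypoxia-inducible factors and their regulators lie on both sides.

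The other angiogenic ligands and inhibitors were mixed. Of 19 tested angiopoietins, PDGFs and related ligands 11 were called higher and 5 lower with A1 (median 0.64). The matricellular factor Ccn2 rose from 126 ± 8.6 to 1396 ± 154 CPM (3.47, SE 0.07), the EGF receptor ligand Hbegf by 2.66 and the ephrin Efnb2 by 1.40, while Angpt1, which stabilizes vessels through the receptor TIE2, went from 462 ± 32.1 to 133 ± 4.52 CPM (-1.80, SE 0.05), Pdgfd was at -0.98 and Angpt4 at -0.91. Ptn and Mdk were too low to test. Of 10 tested genes listed as inhibitors of angiogenesis 7 were called higher and 3 lower (median 0.28), and Col4a3, Vash1 and Dll4 were too low to test. The 7 include Vash2 (0.38) and Rock2 (0.19), which are not established inhibitors and whose values set the median. Timp3 rose by 1.92, Thbs1 by 1.13 (from 2735 ± 243 to 5999 ± 554 CPM) and the signalling inhibitor Spry2 by 1.13, and Adamts1 (-1.41), Col18a1, the source of endostatin (-1.28), and Thbs2 (-0.25) fell.

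The remaining lists hold genes linked to the control of Vegfa. Of 15 tested targets of the hypoxia-inducible factors 11 were called higher and 1 lower with A1 (median 0.35), and Car9 was too low to test. The glucose transporter Slc2a1 rose by 1.22, from 39.9 ± 1.95 to 93.2 ± 4.35 CPM, and Car12 and Ankrd37, which stayed under 4 CPM, by 1.64 and 1.42. The gene called lower was the collagen cross-linking enzyme Lox at -0.09, a call lost when A1 sample 2 or 4, A1 + OVA sample 4, or control sample 2 or 4 was left out (adjusted p from 0.0504 to 0.144). Among the factors themselves Hif1a was at -0.24 (from 368 ± 8.69 to 311 ± 13.5 CPM), Epas1 at -0.81 and their partner Arnt at -0.39, all called lower, while Arnt2 (0.94), the hydroxylase Egln3 (1.19, at 0.595 CPM in control) and Eloc (0.51) were called higher. Of the 12 tested factors and regulators 5 were higher and 6 lower (median -0.06), and Hif3a was too low to test. Of 8 tested regulators of Vegfa RNA 4 were higher and 3 lower (median 0.10), with Ppargc1a too low to test. Zfp36l1 went from 96.9 ± 7.24 to 35.0 ± 2.47 CPM (-1.47, SE 0.06), with Zfp36 at -0.46 and Hnrnpl at -0.17. Atf4 rose by 0.40, Zfp36l2 by 0.33 (from 297 ± 6.80 to 374 ± 2.08 CPM) and Elavl1 by 0.30. The genes of this list went both ways, and their part in the level of Vegfa was not tested. All pathway genes named with a change had an adjusted p under 0.05 in A1 against control.

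The genes whose pattern over the 12 samples was most like that of Vegfa, by Pearson correlation of log2 CPM among 10404 genes, were Nop56 (r = 0.996), Fubp1 (r = 0.994) and Wdr77 (r = 0.992). For Fgf2 they were Gcnt4 and Hmga2 (both r = 0.999) and Tfrc (r = 0.998). The samples form 3 groups whose levels differ, so r mostly reflects the group means, and it is given as a description of likeness.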

How the data were processed

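RNA was measured in 12 samples, 4 in each of 3 groups taken from the sample titles. The authors aligned strand-specific reads to GRCm38 (Ensembl annotation) with STAR 2.7 and deposited raw counts per gene from featureCounts 2.0; bcl2fastq 2.20 is also named in the submitters' processing notes. Gene names, positions and exon lengths came from GENCODE M21 on GRCm38, which is older than that annotation and matched 99.53% of the genes, and promoters came from RefSeq. Counts of protein-coding genes passing filterByExpr (minimum count 10) were scaled by TMM and fitted over all 12 samples with edgeR 4.0.16 (R 4.3.3) by quasi-likelihood, with Benjamini-Hochberg adjustment over 11314 genes. CPM use TMM-scaled library sizes, and RPKM divide them by total exon length. Counts are reads, not molecules, without molecular identifiers, and intervals follow the fitted spread. The pipeline was tested on simulated data, with 100 genes changed by 0.5 and 100 by 1 on the log2 scale among 11238. That is a far smaller share than was called here, so scaling under so broad a response was not tested. Members and lists were chosen with earlier results of these data known. Named from each list were up to 3 called genes with the largest rises and up to 3 with the largest falls with A1. Untested genes were named where a list had 5 or fewer. Vash2 and Rock2 were named besides, and other features were chosen after their values were seen. In the 18 pairs of samples within a group the variance was 1.91 to 6.80 times the counting variance, so no sample was a copy of another. Alternatives were DESeq2 1.42.0, other scalings, filters and gene sets, a replicate block, the compared groups alone, leaving out each sample, and a fold threshold. Protein sequences were not used here.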

Additional observations from a re-analysis of the deposited data

How the results depend on the processing

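Under the 453 alternative fits of single members 436 kept direction and side of the threshold, 7 gained a call and 10 changed sign. The 7 were Vegfb in A1 + OVA against A1, with adjusted p from 0.0246 to 0.05. The sign changes came from leaving out a sample and concerned changes that were not called: -0.25 to 0.14 for Flt1 and -0.04 to 0.01 for Nrp1 in A1 against control, and -0.09 to 0.02 for Vegfa and -0.03 to 0.04 for Nrp2 in A1 + OVA against A1. For pathway genes named by the rule on largest changes, 1735 of 1743 fits kept the call. The other 8 were calls lost by Lox with A1 (5) and, without A1 + OVA sample 4 or control sample 2 or 4, by Hif1a with A1 + OVA (3, adjusted p from 0.056 to 0.116). Requiring a log2 fold change of at least 0.5 left 4 members with A1, 4 with A1 + OVA and 0 between the treatments (background 21%, 17.7% and 1.2% of tested genes), and 45, 43 and 2 pathway genes in place of 82, 83 and 26, because that alternative is stricter by construction. Leaving out a sample gave 6, 7 and 2 to 3 members and 79 to 83, 82 to 85 and 18 to 28 pathway genes. Samples with the same replicate number showed little joint deviation (correlation -0.132 to 0.156, over 0.1 in 2 of 12 pairs). The labels do not say whether they share a culture, day or animal, and these correlations cannot settle it. With the replicate block 6, 7 and 3 members and 83, 84 and 28 pathway genes were called, the added member being Vegfb (adjusted p = 0.0483). Upper-quartile and DESeq2 scaling moved the median of all genes by at most 0.029 from that under TMM on the log2 scale. Depth limits Vegfc, which without the filter stood at -0.33 with A1 (adjusted p = 0.637), and Flt1, which has no value where 10 counts are required in every sample.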
